A study of Danio rerio with 6 samples.

Results

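The genes mbd3b, tmem236, tmigd1, TTC38, pttg1ipb, tpcn3, nat8l2, si:dkey-28n18.9 and si:ch73-338a16.3 are 9 mostly poorly described genes whose mRNA was far more abundant in lysosome rich enterocytes (LRE) than in intestinal epithelial cells (IEC) of zebrafish larvae. They were listed by symbol and had been picked on the size of their LRE over IEC ratio in these same libraries, so that ratio describes them and was not tested. Each symbol named 1 gene, and the 9 genes are part of 35117 counted genes. The LRE group (n = 3 libraries) held cells sorted as positive for both the cldn15la-GFP reporter of intestinal epithelium and an Alexa Fluor 568 dextran, a fluorescent sugar polymer. The IEC group (n = 3 libraries) held cells sorted as positive for cldn15la-GFP. All larvae were wild type, of the EK strain, 6 days after fertilization, and had received the dextran by gavage 24 hours earlier, at 5 days. The labels leave unstated whether the IEC sort excluded cells that held dextran. They also do not tell whether each library came from its own pool of larvae, so p-values measure a spread that may be technical only.

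Lysosome rich enterocytes are absorptive cells that take up luminal protein by endocytosis and break it down in large lysosomes. By their names, those of the 9 genes that are named for a protein belong to different families. Mbd3 proteins are subunits of the NuRD complex, which combines nucleosome remodelling with histone deacetylation. Two-pore channels are cation channels, and the mammalian ones sit in the membranes of endosomes and lysosomes. Proteins of the NAT8 family are N-acetyltransferases, and in mammals NAT8 acetylates cysteine conjugates in the mercapturate pathway, which follows from the breakdown of glutathione conjugates. TMIGD1 is an adhesion protein with immunoglobulin domains found at the apical surface of mammalian kidney and gut epithelium, and PTTG1IP is a small membrane protein named for its binding to securin. TTC38 carries tetratricopeptide repeats, and TMEM236 is a predicted membrane protein. No role is given here to the genes known only by the clone names si:dkey-28n18.9 and si:ch73-338a16.3.

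The libraries held 39590129 to 53250871 counted reads. LRE library 1 stood apart, with 19396 genes detected against 22974 to 25610 in the other 5 libraries, and with 43.0% of its reads in its 10 most abundant genes against 13.1 to 30.9%. Mitochondrial genes took 21.7%, 11.4% and 6.19% of the reads of LRE libraries 1, 2 and 3, and 8.73%, 4.71% and 4.18% of those of IEC libraries 1, 2 and 3. All 6 listed LRE markers passed as higher in LRE, their summed level being 15463 to 33602 CPM (counts scaled to TMM-adjusted library totals) in LRE and 403 to 568 CPM in IEC. The 5 matched markers of intestinal epithelium summed to 4823 to 5465 CPM in LRE and 6541 to 8925 CPM in IEC, and 1 of them was lower. Summed levels of several other marker lists also lay apart between the groups. The 4 matched enteroendocrine markers (of 7 listed) summed to 57.7 to 191.1 CPM in LRE and 373.9 to 1699 CPM in IEC, with 2 passing as lower. The 3 fibroblast markers summed to 2242 to 3299 CPM in LRE and 442.1 to 1173 CPM in IEC, the 2 matched goblet markers (of 3) to 186 to 782 CPM in LRE and 916 to 2227 CPM in IEC, the 2 matched neuron markers (of 3) to 89.1 to 131.3 CPM in LRE and 40.9 to 68.5 CPM in IEC, and the 3 matched leukocyte markers (of 5) to 28.3 to 65.0 CPM in LRE and 66.9 to 225 CPM in IEC; none of these passed. The summed levels of best4 cell, exocrine pancreas, hepatocyte, muscle, erythrocyte and yolk markers overlapped between the groups, and none of those markers passed. None of the 3 listed kidney proximal tubule markers matched a symbol, so that cell type could not be checked. No matched marker was at 0 in every library. The part of other cells and of mitochondrial reads in the differences of the 9 genes was not tested. In sorted bulk samples, fewer cells of a type and less RNA per cell cannot be told apart.

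Together the 9 genes took 0.126%, 0.133% and 0.197% of the reads of LRE libraries 1, 2 and 3, and 0.00493%, 0.00549% and 0.0102% of the reads of IEC libraries 1, 2 and 3. All 9 passed the filter on low counts, and for each of them every LRE library lay above every IEC library. The lowest LRE level was between 11.8 and 53.9 times the highest IEC level of the same gene. Among 20979 genes tested, 13.0% lay above in this way and 13.8% below, and nothing is read from the members' count since that contrast chose them. Their log2 fold changes ran from 4.12 to 7.50 with a median of 4.77, against a median of -0.06 over all genes tested, and 0.358% of those genes, 75 in number, had a log2 fold change of at least the 4.12 of tpcn3. By that value mbd3b ranked 1st and tpcn3 75th, so other genes stand among the 9. Without LRE library 1 the 9 values ran from 4.09 to 7.22 (median 4.88). Levels are not compared between the genes, because their transcript lengths were not used here. The shares of family reads given below are likewise shares of counts, not adjusted for transcript length.

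**Figure D1:**
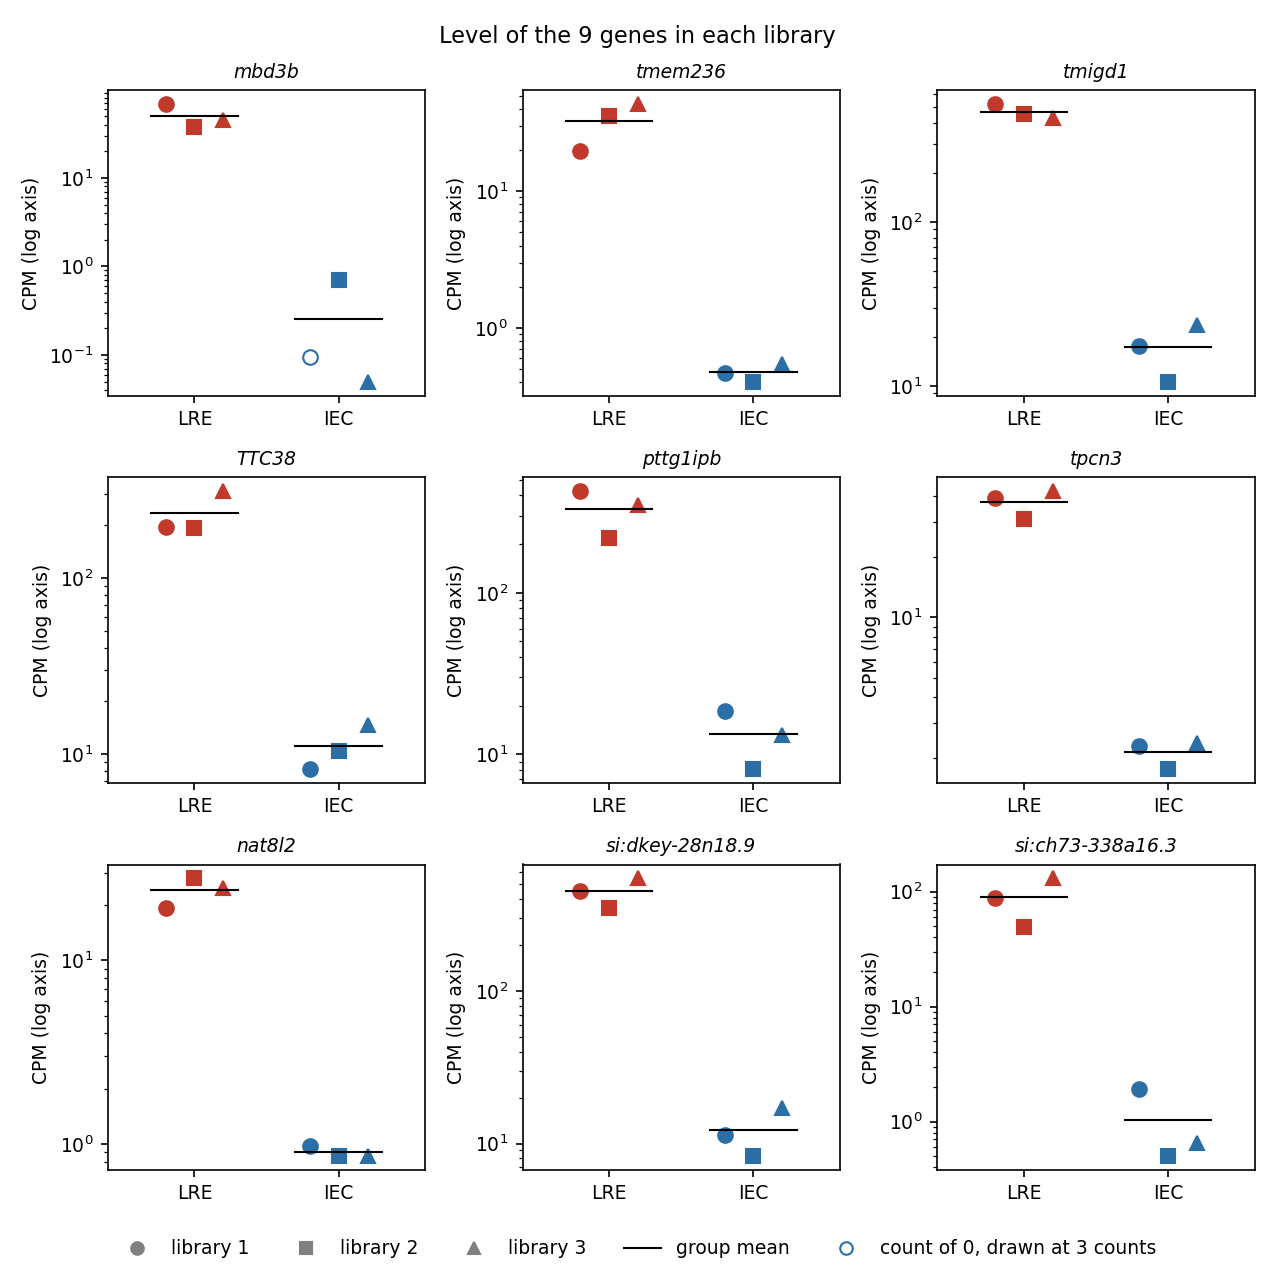
Level of each of the 9 genes in CPM (log axis, each panel with its own range) in the 3 LRE libraries and the 3 IEC libraries; symbols mark the library number, black lines the group means, and the open circle a count of 0 drawn at the level of 3 counts. In each panel all LRE libraries lie above all IEC libraries, and for mbd3b the IEC mean rests on library 2.

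For mbd3b, IEC libraries 1 and 3 held almost no reads. mbd3b (ENSDARG00000061810), 1 of the zebrafish Mbd3 genes, had 1983, 1917 and 2094 counts in LRE libraries 1, 2 and 3, and 0, 49 and 3 counts in IEC libraries 1, 2 and 3. After scaling, LRE libraries 1, 2 and 3 held 67.8, 37.9 and 45.4 CPM, and 49 of the 52 IEC counts came from IEC library 2. Its level was 50.4 ± 15.5 CPM in LRE and 0.251 ± 0.393 CPM in IEC (mean ± SD, n = 3 each). The count of 0 in IEC library 1 allows up to 3 counts, or 0.0941 CPM, which covers counting error only. The log2 fold change of 7.50 ± 1.11 (SE) ranked 1st of all genes tested, but it was 10.49 without IEC library 2, a value that rests on 3 IEC counts and on the prior count of the fit, and 6.75 without both libraries numbered 1.

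The other Mbd3 gene did not share this pattern. MBD3 (ENSDARG00000061774), which the name table lists without a paralog letter, had 862, 2035 and 1862 counts in LRE libraries 1, 2 and 3, and 1801, 3409 and 3262 counts in IEC libraries 1, 2 and 3. Its level was 36.7 ± 6.28 CPM in LRE and 53.2 ± 3.82 CPM in IEC (mean ± SD, n = 3 each), and the groups did not overlap, with every LRE library below every IEC library. MBD3 missed the threshold, at a log2 fold change of -0.53 ± 0.25 (adjusted p = 0.333, edgeR quasi-likelihood test with Benjamini-Hochberg adjustment). Of the reads that fell on either gene, mbd3b took 69.7%, 48.5% and 52.9% in LRE libraries 1, 2 and 3, and 0%, 1.42% and 0.0919% in IEC libraries 1, 2 and 3 (95% Wilson intervals of at most ± 1.69 percentage points). In LRE, mbd3b thus had about as many reads as MBD3 or more, and in IEC almost none. The summed level of the pair was 87.1 ± 9.57 CPM in LRE and 53.4 ± 3.44 CPM in IEC (mean ± SD, n = 3 each). These shares follow from the choice of mbd3b by its ratio and carry no test, and reads of near-identical copies may have been split between them.

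Genes of the wider MBD family and the NuRD complex were not called in either direction. Of 23 listed symbols, 15 matched and were tested, and none passed with edgeR or with DESeq2. In edgeR 2 had an unadjusted p under 0.05, beside 17.0% of all genes tested. Their log2 fold changes ran from -1.61 for CHD3, a remodelling ATPase, to 1.33 for its relative CHD5, with a median of -0.44. HDAC1, the deacetylase of the complex, had -0.44 (adjusted p = 0.421), the histone binding subunit RBBP4 -0.72 (adjusted p = 0.172) and mbd2, which binds methylated DNA, -0.16 (adjusted p = 0.857). The other MBD symbols had -0.71 (mbd1b, adjusted p = 0.362), -0.97 (MBD5, adjusted p = 0.378) and -0.80 (mbd6, adjusted p = 0.324). Over all genes tested, 2.30% were called higher and 0.910% lower.

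**Figure D2:**
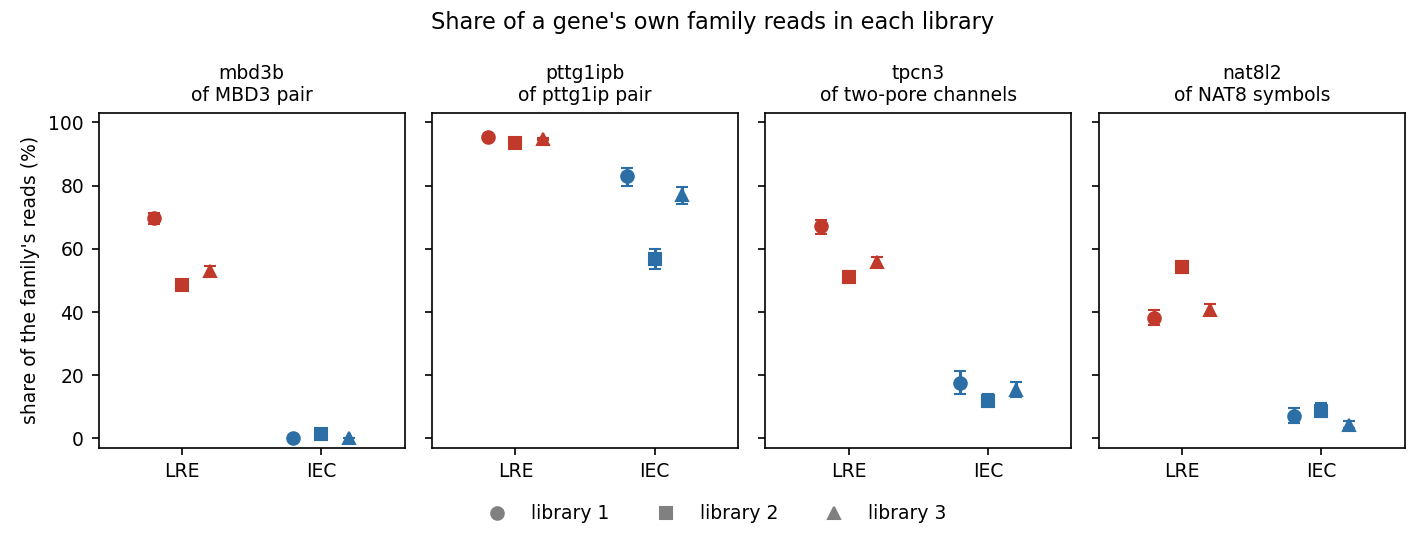
Share, in percent, of the reads of a gene family that fell on mbd3b, pttg1ipb, tpcn3 and nat8l2 in each LRE and IEC library, with 95% Wilson intervals that cover counting error only. The LRE shares lie above the IEC shares in all 4 panels, with mbd3b at 48.5 to 69.7% in LRE and 0 to 1.42% in IEC. Shares are of reads and are not adjusted for transcript length. The 4 genes were chosen by their LRE over IEC ratio, so these differences in share follow from that choice and carry no test.

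The two-pore channel gene tpcn3 had the smallest spread of the 9 across the numbered pairs. In other vertebrates Tpc3 is a voltage-gated channel, and mice and humans have no working copy. tpcn3 (ENSDARG00000078959) had 1147, 1554 and 1953 counts in LRE libraries 1, 2 and 3, and 73, 123 and 144 counts in IEC libraries 1, 2 and 3. Its level was 37.4 ± 6.01 CPM in LRE and 2.15 ± 0.332 CPM in IEC (mean ± SD, n = 3 each), and the log2 fold change was 4.12 ± 0.33 (SE). With 2 added to each count, the log2 ratio of LRE to IEC was 4.06 between the libraries numbered 1, 4.10 between those numbered 2 and 4.13 between those numbered 3. These ratios rest on 73 to 144 IEC counts, and their closeness was not tested against counting error.

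Its relatives had smaller differences between the groups. TPCN2, a lysosomal channel in mammals, had 472, 1401 and 1248 counts in LRE libraries 1, 2 and 3, and 259, 746 and 578 counts in IEC libraries 1, 2 and 3. Every LRE level lay above every IEC level, but TPCN2 missed the threshold, at a log2 fold change of 1.32 ± 0.34 (adjusted p = 0.0800, edgeR). It passed with DESeq2 (adjusted p = 0.0105) and without LRE library 1 (adjusted p = 0.0485, edgeR). TPCN1, an endosomal channel in mammals, had 3.74 ± 2.43 CPM in LRE and 2.95 ± 0.575 CPM in IEC (mean ± SD, n = 3 each) and a log2 fold change of 0.34 ± 0.66 (adjusted p = 0.846, edgeR), whose sign turned without LRE library 3 (-0.34) and with scaling by library totals alone (-0.03). Of all two-pore channel reads, tpcn3 took 67.1%, 51.1% and 55.8% in LRE libraries 1, 2 and 3, and 17.4%, 11.8% and 15.3% in IEC libraries 1, 2 and 3 (95% Wilson intervals of at most ± 3.62 percentage points). As for mbd3b, the difference in share follows from the choice of tpcn3 by its ratio and carries no test.

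Among other listed ion channels and transporters of endosomes and lysosomes, and proteins that act with them, 1 was called higher and none lower. Of 23 listed symbols, 13 matched and were tested, with a median log2 fold change of 0.43. Of the 13 tested, 4 had an unadjusted p under 0.05 in edgeR, beside 17.0% of all genes tested. Over all genes tested, edgeR called 2.30% higher. DESeq2 called 4 of the 13 higher, beside 6.60% of the genes to which it gave an adjusted p. With the replicate number as a block 2 were higher, beside 3.76% of all genes, the further one being OSTM1 (adjusted p = 0.0408), a partner of the lysosomal chloride transporter ClC-7. The gene called by edgeR was SLC38A9, a lysosomal transporter that signals arginine to the kinase mTORC1. SLC38A9 had 1794, 999 and 2112 counts in LRE libraries 1, 2 and 3, and 245, 287 and 198 counts in IEC libraries 1, 2 and 3 (log2 fold change 3.08 ± 0.52, adjusted p = 0.0191, edgeR). Many entries of the name table lack the zebrafish paralog letter. When listed symbols were also matched without that letter, a choice made after the data were seen, 23 genes were tested and 3 were higher, with a median of 0.52. The further ones were MCOLN3, a cation channel of endosomes and lysosomes of the TRPML family, and P2RX4, an ATP-gated channel found on lysosomes in mammals. MCOLN3 (ENSDARG00000102050) had 926, 1862 and 2440 counts in LRE libraries 1, 2 and 3, and 178, 236 and 285 counts in IEC libraries 1, 2 and 3 (log2 fold change 3.15 ± 0.36, adjusted p = 0.00398, edgeR). P2RX4 (ENSDARG00000044752) had 4035, 3881 and 5640 counts in LRE libraries 1, 2 and 3, and 628, 975 and 927 counts in IEC libraries 1, 2 and 3 (log2 fold change 2.78 ± 0.32, adjusted p = 0.00424, edgeR). In all 12 alternative fits, MCOLN3 passed with adjusted p of 0.0319 or less and P2RX4 with 0.0353 or less. A second gene of the symbol P2RX4 (ENSDARG00000042452) had 0, 7 and 0 counts in LRE libraries 1, 2 and 3, and 56, 55 and 23 counts in IEC libraries 1, 2 and 3, and missed the threshold (adjusted p = 0.241, edgeR). The listed gene mcoln3a also went the other way from MCOLN3 and missed the threshold (log2 fold change -2.54, adjusted p = 0.409, edgeR). It had 5, 170 and 2 counts in LRE libraries 1, 2 and 3. In IEC libraries 1, 2 and 3 it had 153, 968 and 137 counts. Of the same family, MCOLN2 (log2 fold change 0.43) and the genes of the symbol MCOLN1 (1.47 and 0.06) missed it as well. The call of SLC38A9 ended without LRE library 3, IEC library 2 or IEC library 3 and without both libraries numbered 1 (largest adjusted p = 0.0928).

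**Figure D3:**
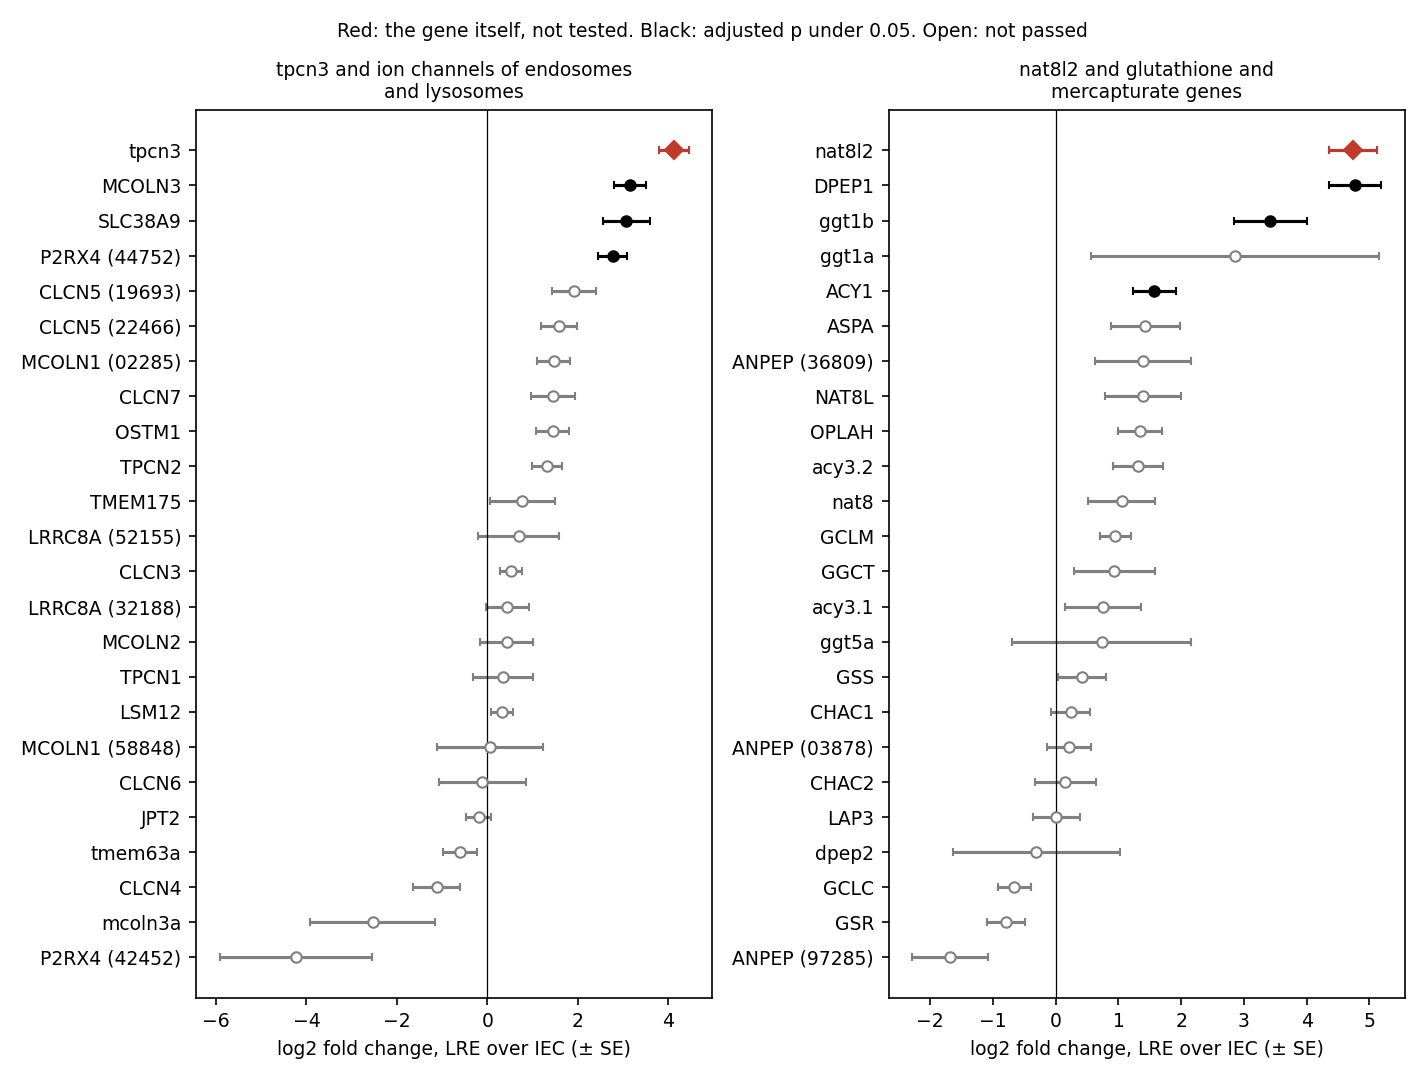
Log2 fold change (LRE over IEC, with SE) of tpcn3 beside tested ion channel and transporter genes of endosomes and lysosomes, and of nat8l2 beside tested glutathione and mercapturate genes, with the wider symbol matching; digits in brackets end the Ensembl ID where several genes share a symbol. MCOLN3 (3.15), SLC38A9 (3.08) and P2RX4 (2.78) passed on the left, and DPEP1 (4.77), ggt1b (3.42) and ACY1 (1.57) on the right.

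For the acetyltransferase gene nat8l2 the IEC libraries lay in a narrow range. nat8l2 (ENSDARG00000077028) had 566, 1413 and 1148 counts in LRE libraries 1, 2 and 3, and 31, 60 and 52 counts in IEC libraries 1, 2 and 3. LRE library 1 was the lowest of its group, also after scaling, at 19.3 CPM against 28.0 and 24.9 CPM in LRE libraries 2 and 3. The level was 24.1 ± 4.37 CPM in LRE and 0.898 ± 0.0642 CPM in IEC (mean ± SD, n = 3 each), with a log2 fold change of 4.74 ± 0.38 (SE). The narrow IEC range rests on 31 to 60 counts and was not tested against counting error. The name table holds 2 further NAT8 symbols. nat8 had 22.4 ± 7.74 CPM in LRE and 10.8 ± 6.54 CPM in IEC (mean ± SD, n = 3 each), with a log2 fold change of 1.05 ± 0.54 that missed the threshold (adjusted p = 0.376, edgeR). NAT8L, which in mammals makes N-acetylaspartate, had 8.04 ± 3.14 CPM in LRE and 3.06 ± 1.77 CPM in IEC (mean ± SD, n = 3 each), with a log2 fold change of 1.39 ± 0.60 that missed it as well (adjusted p = 0.288, edgeR). For both of these genes the groups overlapped. nat8l2 took 38.2%, 54.1% and 40.8% of the reads of the NAT8 symbols in LRE libraries 1, 2 and 3, and 6.97%, 8.77% and 4.19% in IEC libraries 1, 2 and 3 (95% Wilson intervals of at most ± 2.47 percentage points). Here too the difference in share follows from the choice of nat8l2 by its ratio and carries no test.

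Among listed genes of glutathione and mercapturate metabolism, DPEP1, ggt1b and ACY1 were called higher. Of 26 listed symbols, 21 matched and 19 were tested, with a median log2 fold change of 0.93. Of the 19 tested, 10 had an unadjusted p under 0.05 in edgeR, beside 17.0% of all genes tested. In edgeR 3 were higher and none lower, beside 2.30% and 0.910% of all genes. DESeq2 called 6 higher, beside 6.60% of the genes to which it gave an adjusted p. With the replicate number as a block 4 were higher, beside 3.76% of all genes: that fit lost ACY1 and gained acy3.2 (adjusted p = 0.0471), an aminoacylase gene, and OPLAH (adjusted p = 0.0461), the 5-oxoprolinase gene. DPEP1, a membrane dipeptidase that cleaves cysteinylglycine conjugates, had 26799, 28154 and 45540 counts in LRE libraries 1, 2 and 3, and 981, 1501 and 2269 counts in IEC libraries 1, 2 and 3 (log2 fold change 4.77 ± 0.41, adjusted p = 0.00201, edgeR). In all 12 alternative fits DPEP1 passed, at an adjusted p of 0.0301 or less. ggt1b, a gamma-glutamyltransferase gene whose product opens glutathione at the cell surface, had 3280, 7095 and 11742 counts in LRE libraries 1, 2 and 3, and 172, 1266 and 1438 counts in IEC libraries 1, 2 and 3 (log2 fold change 3.42 ± 0.58, adjusted p = 0.0201, edgeR). ACY1, an aminoacylase that removes acetyl groups from amino acids, had 51.5 ± 11.8 CPM in LRE and 17.3 ± 5.85 CPM in IEC (mean ± SD, n = 3 each; log2 fold change 1.57 ± 0.34, adjusted p = 0.0461, edgeR). For each of these 3 genes, every LRE library lay above every IEC library. The genes of glutathione synthesis missed the threshold, with log2 fold changes of -0.66 for GCLC (adjusted p = 0.249), 0.95 for GCLM (adjusted p = 0.0835) and 0.42 for GSS (adjusted p = 0.655), though GCLM passed with DESeq2 (adjusted p = 0.0212).

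The call of ggt1b ended with scaling by library totals alone (adjusted p = 0.107), without LRE library 3 (0.0633), without IEC library 2 (0.0757) and without IEC library 3 (0.0535). The call of ACY1 ended without any 1 of the 6 libraries, without both numbered 1, with the replicate number as a block (adjusted p = 0.0520) and when scaled by totals alone (0.325).

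The adhesion gene tmigd1 was even across LRE libraries. tmigd1 (ENSDARG00000007040) had 15236, 23137 and 19900 counts in LRE libraries 1, 2 and 3, and 557, 738 and 1426 counts in IEC libraries 1, 2 and 3. After scaling, its LRE levels were the most even of the 9 genes, at 470.1 ± 45.6 CPM, against 17.2 ± 6.50 CPM in IEC (mean ± SD, n = 3 each), and the coefficient of variation was 9.71% in LRE and 37.7% in IEC. The log2 fold change was 4.77 ± 0.40 (SE). No other TMIGD symbol was in the name table. Of 40 listed symbols of epithelial adhesion proteins with immunoglobulin domains, microvillus cadherins and apical scaffolds, 21 matched and were tested, and none passed in edgeR (3 at an unadjusted p under 0.05). Over all genes tested, 17.0% had an unadjusted p under 0.05. With DESeq2 1 was higher, eps8l3a (adjusted p = 0.00339), beside 6.60% of the genes to which it gave an adjusted p. With the replicate block 1 was higher, gpa33a (adjusted p = 0.0162), beside 3.76% of all genes. In edgeR the log2 fold changes of the 21 ran from -3.09 for f11r.2 to 1.79 for esamb (median 0.23). Both ends rest on few counts. f11r.2 had 0, 9 and 0 counts in LRE libraries 1, 2 and 3, and 13, 29 and 50 in IEC libraries 1, 2 and 3. esamb had 0, 31 and 137 counts in LRE libraries 1, 2 and 3, and 4, 11 and 45 in IEC libraries 1, 2 and 3. The junction protein f11r.1 had -0.57 (adjusted p = 0.398), the scaffold pdzk1 0.65 (adjusted p = 0.433), the microvillus cadherin cdhr5b 0.32 (adjusted p = 0.708) and VIL1, the actin bundler villin, -0.68 (adjusted p = 0.357).

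Both zebrafish genes named for the securin-binding protein were higher in LRE, pttg1ipb, which was chosen for it, and its paralog pttg1ipa, which passed the test. pttg1ipb (ENSDARG00000040039) had 12406, 11059 and 15976 counts in LRE libraries 1, 2 and 3, and 593, 567 and 793 counts in IEC libraries 1, 2 and 3. Its level was 329.8 ± 103.6 CPM in LRE and 13.3 ± 5.23 CPM in IEC (mean ± SD, n = 3 each), with a log2 fold change of 4.63 ± 0.45 (SE). pttg1ipa (ENSDARG00000090156) had 602, 756 and 861 counts in LRE libraries 1, 2 and 3, and 122, 432 and 237 counts in IEC libraries 1, 2 and 3, without overlap of the groups after scaling. Unlike pttg1ipb it was not 1 of the 9 genes picked on their ratio, though the lists of relatives were chosen with earlier results of these data known. pttg1ipa rose by 1.96 ± 0.38 on the log2 scale (adjusted p = 0.0314, edgeR). That call ended without any 1 of the 6 libraries or without both numbered 1 (largest adjusted p = 0.148), and also when library totals alone were used for scaling (0.207). pttg1ipb took 95.4%, 93.6% and 94.9% of the reads of the pair in LRE libraries 1, 2 and 3, and 82.9%, 56.8% and 77.0% in IEC libraries 1, 2 and 3 (95% Wilson intervals of at most ± 3.07 percentage points). It thus took more reads than pttg1ipa in all 6 libraries, without adjustment for transcript length. The difference in its share between the groups follows from the choice of pttg1ipb by its ratio and carries no test. The securin gene pttg1, whose product holds back separase before anaphase, had 19, 87 and 161 counts in LRE libraries 1, 2 and 3, and 360, 196 and 346 counts in IEC libraries 1, 2 and 3. It missed the threshold at a log2 fold change of -1.75 (adjusted p = 0.306, edgeR).

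Leaving aside TTC38, which was chosen by its ratio and not tested, no gene with a TTC symbol was called in edgeR. TTC symbols are given for tetratricopeptide repeats. TTC38 (ENSDARG00000042188) had 5752, 9834 and 14402 counts in LRE libraries 1, 2 and 3, and 262, 722 and 880 counts in IEC libraries 1, 2 and 3. In both groups library 3 was the highest, and the level was 234.6 ± 67.6 CPM in LRE and 11.1 ± 3.22 CPM in IEC (mean ± SD, n = 3 each; log2 fold change 4.41 ± 0.37, SE). The name table held 30 other TTC symbols, of which 27 were tested. None passed in edgeR, and 3 had an unadjusted p under 0.05, beside 17.0% of all genes tested. DESeq2 called 1 lower, TTC39C (log2 fold change -1.47, adjusted p = 0.0305), beside 4.34% of the genes to which it gave an adjusted p. In edgeR the log2 fold changes of the 27 ran from -2.17 (TTC22) to 1.92 (TTC23), with a median of -0.23. Both ends rest on few counts. TTC22 had 0, 23 and 0 counts in LRE libraries 1, 2 and 3, and 5, 107 and 25 in IEC libraries 1, 2 and 3. TTC23 had 78, 75 and 68 counts in LRE libraries 1, 2 and 3, and 27, 17 and 24 in IEC libraries 1, 2 and 3. The genes with a TTC symbol share a repeat and not a close common descent, so they are a background by name more than a family.

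In LRE library 1 the level of tmem236 was 60.5% of its group mean. tmem236 (ENSDARG00000075715) had 579, 1780 and 1988 counts in LRE libraries 1, 2 and 3, and 15, 28 and 33 counts in IEC libraries 1, 2 and 3. After scaling, LRE library 1 held 19.8 CPM, against 35.2 and 43.1 CPM in LRE libraries 2 and 3, and the IEC libraries held 0.402 to 0.546 CPM. The log2 fold change was 6.11 ± 0.46 (SE) and ranked 10th, and it was 6.37 without LRE library 1. No other tmem236 symbol was in the name table.

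Of the genes with clone names, si:dkey-28n18.9 varied less within LRE than si:ch73-338a16.3. si:dkey-28n18.9 (ENSDARG00000097193) had 13238, 17583 and 25207 counts in LRE libraries 1, 2 and 3, and 360, 578 and 1036 counts in IEC libraries 1, 2 and 3. Its level was 449.1 ± 99.6 CPM in LRE and 12.2 ± 4.49 CPM in IEC (mean ± SD, n = 3 each; log2 fold change 5.20 ± 0.42, SE). The 2 other genes named after the same clone had few counts, with 0, 1 and 0 counts for si:dkey-28n18.7 and 0, 9 and 0 counts for si:dkey-28n18.12 in LRE libraries 1, 2 and 3, and with 8, 8 and 3 counts and 0, 12 and 0 counts in IEC libraries 1, 2 and 3. si:ch73-338a16.3 (ENSDARG00000101159) had 2607, 2477 and 6025 counts in LRE libraries 1, 2 and 3, and 61, 35 and 39 counts in IEC libraries 1, 2 and 3. It varied most within LRE among the 9 genes, with a coefficient of variation of 45.6%, and its log2 fold change of 6.50 ± 0.67 (SE) ranked 7th. It was 7.28 without IEC library 1, which held the most of the IEC libraries at 1.91 CPM, against 0.503 and 0.645 CPM in IEC libraries 2 and 3.

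Among all 107 relatives matched by the lists and name stems, 100 were tested, 5 were called higher (SLC38A9, pttg1ipa, DPEP1, ggt1b and ACY1) and 0 lower in edgeR, beside the 2.30% and 0.910% of all genes tested given above. The median log2 fold change of these 100 was 0.06, against -0.06 over all genes, and 23 had an unadjusted p under 0.05, beside 17.0% of all genes tested. With the replicate number as a block 8 were higher and 0 lower, beside 3.76% and 1.75% of all genes. DESeq2 called 12 higher and 1 lower, beside 6.60% and 4.34% of the genes to which it gave an adjusted p. Leaving out LRE library 3, IEC library 2 or IEC library 3 left 1 higher in each case, leaving out LRE library 2 or IEC library 1 left 3, and scaling by totals alone left 2.

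The IEC level as a share of the LRE level differed between the 9 genes. Set against the mean LRE level of the same gene, it had a median of 3.50% over all 27 values of the 9 genes in the IEC libraries and ran from 0 to 6.36%. Within IEC library 3 the same measure ran from 0.0985% for mbd3b and 0.720% for si:ch73-338a16.3 to 6.21% for TTC38 and 6.36% for tpcn3. Within IEC library 2 it ran from 0.561% for si:ch73-338a16.3 and 1.23% for tmem236 to 4.72% for tpcn3. Within IEC library 1 it ran from 0 for mbd3b and 1.44% for tmem236 to 6.12% for tpcn3. These ratios belong to the values that chose the 9 genes and carry no test. Among LRE libraries, library 2 was the lowest for 6 of the 9 genes, and library 3 was the highest for 5. Among IEC libraries, library 2 was likewise the lowest for 6 and library 3 the highest for 5.

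The genes whose profile over the 6 libraries lay closest to each of the 9 were named by a measure of likeness. Closeness is the root mean square difference in log2 CPM after centring each gene, among 8630 other genes with a symbol and a mean of at least 10 CPM. It includes the group difference by which the 9 were chosen and carries no test. The closest to tpcn3 was LRPAP1, a chaperone of megalin-type receptors (0.19), followed by tpte (0.20) and SNX2, a sorting nexin (0.21). The closest to nat8l2 was the spectrin gene sptbn5 (0.23), then FOLR2, a folate receptor gene (0.28). The closest to pttg1ipb was epdl2 (0.23), and DPEP1 was also among its 3 closest genes (0.28). TTC38 lay closest to misp (0.16), the smallest difference of all, and then to MFSD12 (0.25) and the peptidase gene NAALAD2 (0.26). tmigd1 lay closest to DPEP1 (0.29), and tmigd1 and si:dkey-28n18.9 were each among the 3 closest genes of the other (0.31).

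si:dkey-28n18.9 lay closest to tdo2b, which starts tryptophan breakdown (0.27), and tmem236 to the cytochrome P450 gene cyp2k6 (0.52). si:ch73-338a16.3 lay closest to CUBN (0.42), amn (0.46) and the cathepsin L gene ctsl.1 (0.47), which encode the cubilin receptor, its membrane partner and a lysosomal protease. For mbd3b the closest was CUBN, at 1.63, the largest of these closest distances.

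Of the genes near the 9 on the chromosomes, slc23a4 and GLB1L were called higher and ghrl lower, and none of these is the immediate neighbour of its member. The RefSeq table of a later assembly, GRCz12tu, placed 8 of them, on chromosomes 2, 6, 9, 11, 18, 21 and 22, and si:ch73-338a16.3 was not placed. Only RefSeq genes whose symbol named exactly 1 counted gene were used, so other counted genes may lie between, and places count matched genes only. Of the 32 matched genes nearest in the RefSeq order, at most 2 on each side, 29 were tested. Of these, 2 were higher and 1 lower in LRE, beside 2.30% and 0.910% of all genes tested. Their median log2 fold change was 0.47. As the second gene after TTC38, slc23a4, whose rat relative carries nucleobases, rose by 2.42 ± 0.35 on the log2 scale (adjusted p = 0.0111, edgeR). As the second after pttg1ipb, the beta-galactosidase-like gene GLB1L rose by 2.20 ± 0.34 (adjusted p = 0.0135, edgeR). As the second after si:dkey-28n18.9, the ghrelin hormone gene ghrl fell to 414, 191 and 35 counts in LRE libraries 1, 2 and 3, against 24897, 11611 and 14657 counts in IEC libraries 1, 2 and 3 (log2 fold change -6.00 ± 1.13, adjusted p = 0.0288, edgeR), and ghrl is itself 1 of the enteroendocrine markers summed above. The part of such cells in its difference was not tested. As the second after tmigd1, slc47a2.1 of the MATE transporters had 839, 1367 and 1257 counts in LRE libraries 1, 2 and 3, and 3, 181 and 214 counts in IEC libraries 1, 2 and 3, without overlap. It missed the threshold at a log2 fold change of 3.72 ± 0.92 (adjusted p = 0.0723, edgeR).

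**Figure D4:**
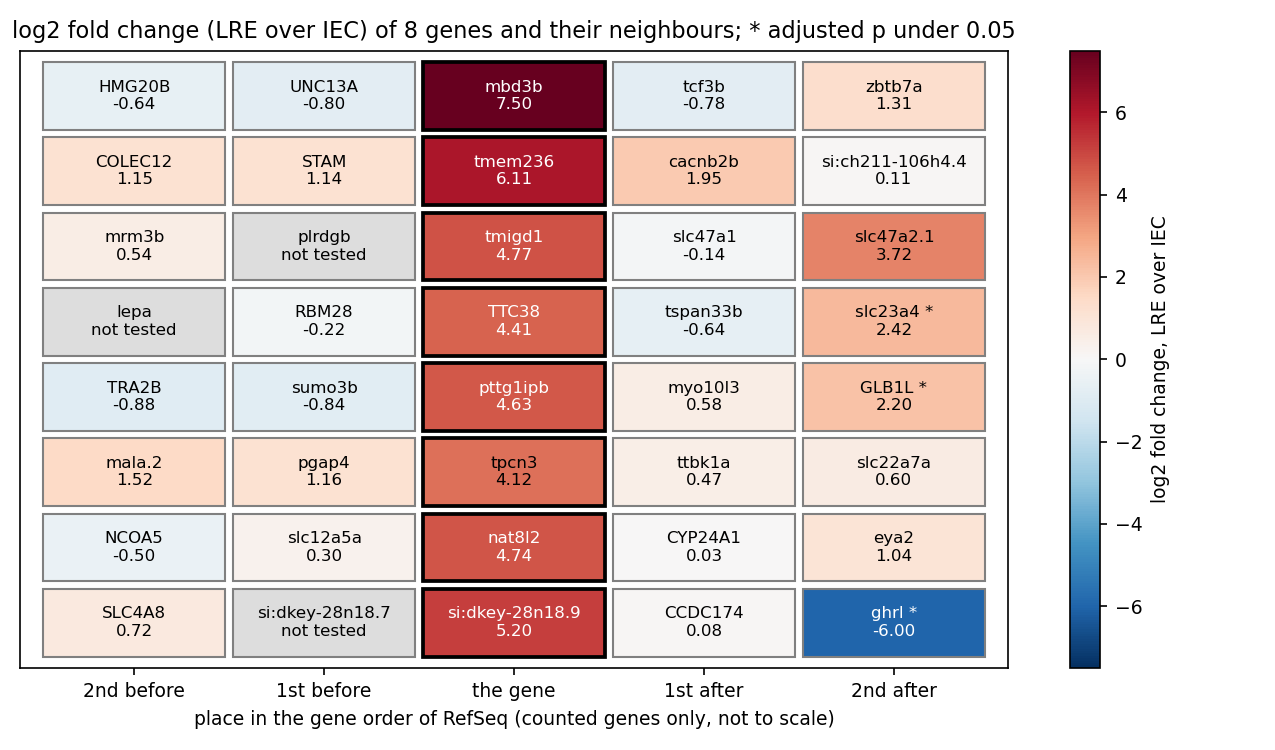
Log2 fold change (LRE over IEC, colour and number) of 8 of the 9 genes, in the middle column, and of their neighbours. Neighbours are the nearest genes matched by symbol in the RefSeq order of GRCz12tu, and unmatched genes are skipped. Columns give the place among matched genes, not distance, and stars mark adjusted p under 0.05. The middle column runs from 4.12 to 7.50, and of the 29 tested neighbours slc23a4 (2.42), GLB1L (2.20) and ghrl (-6.00) passed.

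The calls of slc23a4 and GLB1L ended without LRE library 3, without IEC library 3, without both libraries numbered 1 and with scaling by totals alone, and that of slc23a4 also without IEC library 2 (largest adjusted p 0.1003 for slc23a4 and 0.130 for GLB1L). The call of ghrl ended without LRE library 2, LRE library 3 or any 1 IEC library (largest adjusted p = 0.106), and its log2 fold change was -7.45 without LRE library 1 and -5.06 without IEC library 1.

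In that RefSeq order, 4 of the 8 placed genes overlapped another gene: mbd3b and tmem236 each overlapped a long non-coding RNA, nat8l2 overlapped slc12a5a, and si:dkey-28n18.9 overlapped CCDC174 and pfkfb4b. Overlap was taken from the start and end of whole genes in that later assembly, without regard to exons. The strand setting of the counting is not given in the sources used here. Whether reads of 1 overlapping gene were counted for the other was not tested. slc12a5a had 0, 46 and 10 counts in LRE libraries 1, 2 and 3, and 4, 31 and 21 counts in IEC libraries 1, 2 and 3, fewer than nat8l2 in every library. CCDC174 had 9.19 ± 0.203 CPM in LRE and 8.68 ± 2.85 CPM in IEC (mean ± SD, n = 3 each), with a log2 fold change of 0.08 (adjusted p = 0.945, edgeR).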

How the data were processed

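RNA sequencing was carried out on 6 libraries of cells sorted by fluorescence from dissociated larvae given 1 to 2 nl of a 2.5 mg/ml dextran solution. Libraries were made with a Clontech ultra low input kit, per the labels' protocols, and such amplification can add to the spread. The submitters' processing notes name HISAT2, HTSeq and the build GRCz10. Tool versions and strand mode: not given in the sources used here. Values deposited by the authors are raw counts per Ensembl gene.

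Groups came from the sample titles. LRE and IEC were compared across all genes with edgeR 4.0.16 in R 4.3.3 (TMM factors, filterByExpr with a minimum count of 10 and total of 15, quasi-likelihood F test, Benjamini-Hochberg adjusted p under 0.05). CPM values use TMM-scaled totals, and shares use plain counts. The SE of a log2 fold change was derived from the test, as its absolute value divided by the square root of F. Symbols of 27000 genes came from a table of Ensembl IDs, matched exactly and otherwise without regard to case.

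The members, the lists and the rule for named genes (list members that passed, name-stem relatives, 2 neighbours on each side, 3 closest profiles) were chosen with earlier results of these data known; others named were chosen after their values were seen. Relatives by protein alignment were not analysed here. Of the closest profiles, 1 gene is not reported here. Alternatives were RLE factors, totals alone, no filter, DESeq2 1.42.0, a replicate block, leaving out libraries and wider symbol matching. The fit was checked on simulated counts with known changes. These had independent libraries and the same dispersion for every gene. That check therefore does not cover paired or outlying libraries, as in the real data. In pairs of equal number, deviations from the group mean had Pearson's r of 0.217, 0.238 and 0.188 over genes, which are not independent replicates. Since each exceeded 0.1, the numbers count as pairing the libraries, on this evidence only. Mitochondrial shares also fell from library 1 to library 3 in both groups, and the source of these correlations was not tested. The main fit left the pairing out, so calls given without further mark are unpaired, and the replicate block is the paired alternative.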

Additional observations from a re-analysis of the deposited data

How the results depend on the processing

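The 9 members were higher in LRE in all 12 alternative fits run on them, and 105 of their 108 recomputed fold changes moved by less than the spread between replicates. The exceptions were mbd3b without IEC library 2 (10.49) and tpcn3 and nat8l2 with scaling by library totals alone (3.73 and 4.38). Since the members were chosen by this contrast, their direction is no sign of stability. Leaving out 1 library of a group can hardly move a fold change beyond the spread between replicates. The count of 105 is therefore no sign of stable sizes either. Their median log2 fold change was 4.38 with scaling by totals alone, which moved the median of all genes by -0.40, and 4.66 to 5.02 over the fits that each left out 1 library.

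Counts of calls moved more, and the cause was not tested. Over all genes, edgeR without a block called 483 higher and 191 lower. Scaling by totals alone called 137 higher, the replicate block 789 higher and 367 lower, DESeq2 1245 higher and 819 lower, and the fit without both libraries numbered 1 called 251 higher; leaving out 1 library gave 146 to 419 higher and 28 to 261 lower. With the share of higher among all calls at 71.7%, scaling by totals alone gave 42.9%.

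Relatives called higher numbered 5, against 2 with scaling by totals alone, 8 with the replicate block, 12 with DESeq2, 2 without both libraries numbered 1, 7 with wider symbol matching and 1 to 4 when 1 library was left out. Relatives called lower numbered 0, and 1 with DESeq2. Neighbours called higher numbered 2, against 0 with scaling by totals alone, 4 with DESeq2, 1 without both libraries numbered 1 and 0 to 3 when 1 library was left out. Neighbours called lower numbered 1, and 0 to 1 when 1 library was left out. Among named genes called without it, the block ended the call of ACY1 and no other, and among relatives it added OSTM1, gpa33a, acy3.2 and OPLAH. A value that misses the threshold with 3 libraries a group does not show that the groups are alike.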
